A study of Gallus gallus with 15 samples.

Results

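Green monochromatic illumination (GMI) given for the last 3 days of incubation (G3D) was compared with GMI given throughout incubation and hatching (Green) in the hypothalamus of broiler chicks on the day of hatch (DOH). The 7 libraries were chosen by the treatment in their labels, 4 of G3D (replicates 1, 5, 6 and 7) and 3 of Green (replicates 2, 7 and 9), out of 15 libraries in the series. The other 8 libraries came from 4 eggs incubated in the dark (Control) and 4 incubated under white light throughout (White), and they serve here as background. All chicks were Ross 308 broilers, for which the labels give no mutation or transgene, and each library holds RNA from 1 hypothalamic hemisphere of 1 chick.

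G3D eggs received green light only in the last 3 days, so the regimes share the colour, the lamp intensity and the final days of light and differ in whether green light was present before them. The eggs of a regime lay under their own lamps behind light-proof dividers, so the regime and the place in the incubator cannot be told apart. The study ran several incubation trials, and the labels do not say which trial a chick came from. The labels call the Control, White and Green chicks male and give no sex for the G3D chicks, while the study describes its sequenced chicks as male.

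The hypothalamus joins signals on light, feeding and growth. Its neurons release neuropeptides: somatostatin holds back growth hormone release from the pituitary, agouti-related peptide and galanin stimulate feeding, and vasoactive intestinal peptide drives prolactin release in birds. Light reaches the avian embryo through the shell, by way of the eyes and of photoreceptors inside the brain.

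No gene differed between G3D and Green past the threshold of edgeR's quasi-likelihood test, an adjusted p (padj, Benjamini-Hochberg) under 0.05 over 10475 genes tested. The share of genes called was 0%, with 0 higher and 0 lower in G3D, and the smallest padj was 0.640. At an unadjusted p under 0.05 the same test marked 387 genes (3.69%), of which 179 were higher in G3D (1.71%) and 208 lower (1.99%). A test of unchanged genes would mark 523.75 on average at that p. The libraries of the regimes did not overlap in 510 genes (4.87%), with G3D above Green in 250 (2.39%) and below in 260 (2.48%). DESeq2 called 2 genes (0.0191% of 10471) and limma-voom 0, with 438 and 375 genes at an unadjusted p under 0.05. In the same edgeR fit, G3D differed from Control in 10 genes (0.0955%) and Green from Control in 0 (0%), with 1637 and 750 genes at an unadjusted p under 0.05. Both of these comparisons use the same Control libraries. The study, by DESeq2 at the same padj threshold, reports more genes against Control for each of the 2 regimes. Its count is many times larger for G3D than for Green. Why the study's counts are higher than those of edgeR here was not tested. The comparisons with Control do not show that G3D and Green differ, since the direct edgeR test called none.

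A padj over the threshold does not show that the regimes act alike, so the size of difference that the data leave room for was also measured. The 95% interval of the log2 fold change (G3D minus Green) lay within 1 log2 unit of 0 for 6273 genes, 59.9% of those tested, and within 0.5 for 2424. The median interval reached 0.61 to each side. Precision followed the level of the gene, given here as CPM, the count relative to its library's total after scaling by TMM. The interval lay within 1 log2 unit in 5.17% of genes under 5 CPM, in 65.0% from 5 to 20 CPM, in 93.5% from 20 to 100 CPM and in 98.0% at 100 CPM or more. A 2-fold difference between the regimes was therefore outside the interval for most genes above 20 CPM and inside it for most genes under 5 CPM. The estimates themselves were small, with 83.5% of genes under 0.5 log2 units in size and 436 genes over 1. No gene was at 0 counts in every library of one regime with 10 or more counts in every library of the other.

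**Figure D1:**
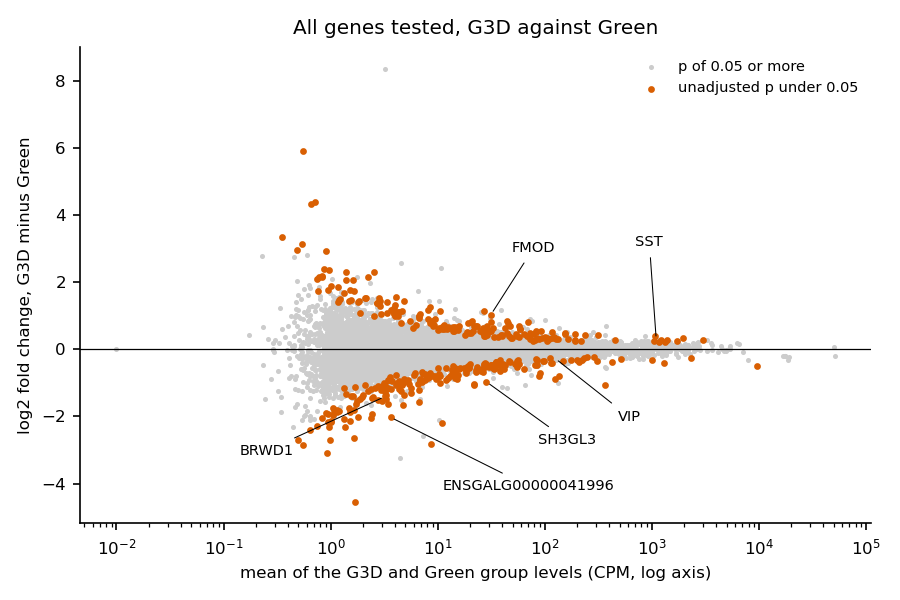
Each point is 1 of the genes tested, with its level (mean of the G3D and Green means, CPM, log axis) against its log2 fold change, G3D minus Green; orange points have an unadjusted p under 0.05 and none has a padj under 0.05. The spread narrows from left to right, and from 100 CPM upwards most genes lie close to 0.

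The total count of a library was between 7349032 and 8205918 in Green replicates 7 and 2 and 5898618 in replicate 9, and between 4196251 and 7979031 in G3D, within the range of 3944530 to 9501555 over the series. G3D replicate 6 was the lowest in several measures, though in none of them by a gap past Dixon's limit for 4 samples, used below. It had the lowest total of the 7 libraries, 12270 genes detected against 12695 to 13477 in the other G3D libraries, and 21.6% of its counts in its 20 most abundant genes against 27.4 to 29.2%. Without it edgeR called 0 genes and marked 331 of 10482 at an unadjusted p under 0.05. Replicate 5 was the G3D library closest to Control. Without replicate 5 the test also called 0 genes and marked 674 of 10319 at an unadjusted p under 0.05. Of the marker lists for cell types and regions, 9 of 12 held no gene with an identifier, so the labelled tissue and its neighbours could be checked only by 5 genes. SNAP25, a neuronal gene, was at 498 CPM or more in all 7 libraries. The log2 fold changes of the neuronal genes SNAP25, STMN2 and GAD2 were -0.22, 0.08 and -0.41. That of EMX2, a telencephalon marker, was 0.29. None of these had an unadjusted p under 0.05 by edgeR. COL1A2, a marker of meninges and fibroblasts, did, with a log2 fold change of 0.60 (higher in G3D). The part of these marker genes in the results was not tested.

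As a group the G3D libraries stood no further from the Green libraries than from each other. The mean distance on the log2 CPM scale, a root mean square over all genes tested, was 0.740 between Green and G3D, 0.694 among the Green libraries and 0.790 among the G3D libraries. The mean distance between the regimes minus that within them was -0.02. In 31 of the 35 divisions of the 7 libraries the difference was at least as large (exact permutation test, one-sided p = 0.886). Without G3D replicate 5 the difference turned to 0.02 (p = 0.2 by the exact permutation test). For comparison, the mean distance to the Control libraries was 0.727 from Green and 0.814 from G3D. The median within-group SD of log2 CPM was 0.346 in G3D and 0.280 in Green, a difference that was not tested.

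The deposited table names genes by Ensembl identifier. Symbols were given to 568 of the genes tested (5.42%), those that the study's own list of genes differing from Control pairs with an identifier. That list was drawn up on these same libraries, so the genes named below are not a free sample of the genome. Their levels in Control and White are not independent evidence, and neither are their differences between G3D and Green. The shares over all genes tested, given below, are thus not a like background for counts among them. Of the 568 genes, 26 were higher and 33 lower in G3D than in Green at an unadjusted p under 0.05, and 47 did not overlap. Both held for 24 genes, 10 higher and 14 lower. Their padj in edgeR's test was 0.999. In bulk tissue a lower level cannot be told apart from fewer cells that hold the transcript.

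The gene with the smallest p had no symbol. ENSGALG00000041996 had 48, 31 and 42 counts in Green replicates 2, 7 and 9, and 18, 8, 5 and 4 counts in G3D replicates 1, 5, 6 and 7. Every G3D library was thus below every Green library, with means of 1.40 ± 0.86 CPM (SD, n = 4) in G3D and 5.84 ± 1.44 CPM (SD, n = 3) in Green. Control libraries had 6.96 ± 1.36 CPM (SD, n = 4) and White libraries 3.68 ± 0.52 CPM (SD, n = 4). The White mean thus lay between those of the green regimes, while White replicate 6 (4.39 CPM) was above Green replicate 7 (4.31 CPM). The log2 fold change was -2.02 (SE 0.40, 95% interval -2.86 to -1.19), with a padj of 0.640 by edgeR and 0.0104 by DESeq2. The edgeR padj was 0.0485 without G3D replicate 1, and over all alternatives and left-out libraries the padj ranged from 0.0104 to 0.999844. Against Control, the edgeR padj of the same gene was 0.0249 in G3D and 0.895 in Green.

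The other gene that DESeq2 called, ENSGALG00000029966, rested on single libraries. It had 0 counts in all Green libraries, 0 in G3D replicates 1 and 5, 104 in replicate 6 and 11 in replicate 7. It also had 72 counts in Control replicate 8, 31 in White replicate 3 and 176 in White replicate 6, and 0 elsewhere. The regimes overlapped at 0, and the padj was 0.00634 by DESeq2 and 0.999 by edgeR.

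Genes with a symbol that were lower in G3D are described next, none with a padj under 0.05 by edgeR. They are named singly and are not read as a group. SH3GL3 (ENSGALG00000006045), endophilin A3, which bends membranes during endocytosis, was at 40.7, 45.2 and 27.1 CPM in Green replicates 2, 7 and 9, and at 18.5, 25.9, 14.3 and 17.96 CPM in G3D replicates 1, 5, 6 and 7. The highest G3D library lay just under the lowest Green library, and Control libraries ran from 36.3 to 45.6 CPM. The log2 fold change was -0.97 (SE 0.22, 95% interval -1.42 to -0.51), with an unadjusted p of 0.000255 and a padj of 0.999 by edgeR's quasi-likelihood test and a padj of 0.0913 by DESeq2. Against Control, the log2 fold change of SH3GL3 was -1.13 in G3D (padj 0.0323 by edgeR) and -0.16 in Green (padj 0.889).

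BRWD1 (ENSGALG00000016065), a bromodomain and WD-repeat protein that reads acetylated histones, was at 5.80, 4.31 and 3.93 CPM in Green and at 1.48, 1.53, 1.82 and 2.29 CPM in G3D, in the same order of replicates. The regimes did not overlap, and no G3D library had more than 12 counts. The log2 fold change was -1.41 (SE 0.39, 95% interval -2.23 to -0.58), with an unadjusted p of 0.00193 by edgeR. Against Control, it was -1.93 in G3D (padj 0.0435 by edgeR) and -0.52 in Green (padj 0.757).

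TTLL12 (ENSGALG00000014167), of the tubulin tyrosine ligase-like family, was at 27.1, 37.1 and 33.8 CPM in Green and at 21.8, 22.6, 17.1 and 19.3 CPM in G3D. Green lay at the Control level (32.7 ± 5.08 against 32.3 ± 4.34 CPM, SD, n = 3 and 4), and G3D was below every Control library. SLC25A4 (ENSGALG00000010614), which exchanges ADP and ATP across the inner mitochondrial membrane, was at 47.2, 52.5 and 41.3 CPM in Green and at 30.5, 38.9, 22.3 and 27.9 CPM in G3D. Again the regimes did not overlap, and the log2 fold changes were -0.69 for TTLL12 (95% interval -1.06 to -0.32) and -0.65 for SLC25A4 (95% interval -1.04 to -0.26). MYO9B, an unconventional myosin, was at 16.4, 12.5 and 9.39 CPM in Green and at 6.07, 8.01, 7.96 and 8.79 CPM in G3D, without overlap, with a log2 fold change of -0.73 (95% interval -1.25 to -0.22). TMEM220 (-0.81), GCNT7, a glycosyltransferase (-0.88), and SLC13A5, a citrate transporter (-0.82), did not overlap either. IBTK, an inhibitor of Bruton's tyrosine kinase, had 26, 24 and 11 counts in Green and 0, 7, 2 and 2 in G3D.

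**Figure D2:**
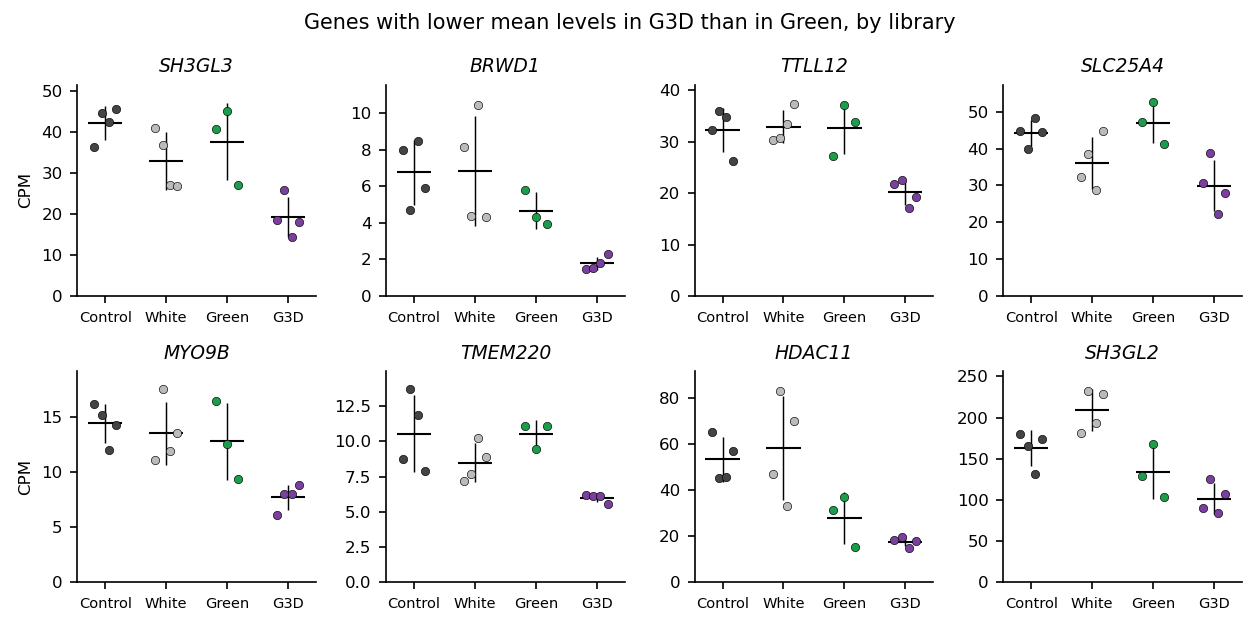
CPM of 8 genes in each library of Control, White, Green and G3D (points), with the group mean (bar) and SD (vertical line). In the upper row and in MYO9B and TMEM220 no G3D point reaches the Green points; in HDAC11 and SH3GL2 the regimes overlap.

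HDAC11 (ENSGALG00000005092), a histone deacetylase, and SH3GL2, endophilin A1 of the synapse, showed a graded pattern in place of a gap. HDAC11 was at 31.5, 37.0 and 15.4 CPM in Green and at 18.2, 19.6, 15.0 and 17.8 CPM in G3D. Green replicate 9 fell among the G3D libraries, and all 7 were below the lowest Control library (45.5 CPM). Between the regimes its log2 fold change was -0.66 (95% interval -1.27 to -0.05), with an unadjusted p of 0.0347 by edgeR and 0.106 by limma-voom. It was -0.41 without Green replicate 7 (unadjusted p 0.212 by edgeR) and -0.95 without Green replicate 9, and the p was under 0.05 in 10 of the 15 fits with a library left out. SH3GL2 likewise moved from -0.39 to -0.19 without Green replicate 7 (unadjusted p 0.285 by edgeR). Against Control, the log2 fold change of HDAC11 was -1.59 in G3D (padj 0.0249 by edgeR) and -0.93 in Green (padj 0.511).

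Among the genes higher in G3D, otokeratin (ENSGALG00000034868), a keratin known from the chicken inner ear, was at 6.94, 2.92 and 5.12 CPM in Green and at 13.6, 11.95, 9.78 and 9.36 CPM in G3D. The regimes did not overlap, Green lay around the Control libraries (4.77 to 6.58 CPM), and the log2 fold change was 1.16 (SE 0.31, 95% interval 0.51 to 1.81) with an unadjusted p of 0.00127 by edgeR. SNRPC, a component of the U1 splicing particle, was at 104, 107 and 97.2 CPM in Green and at 125, 125, 133 and 134 CPM in G3D. Its gap was narrow but the libraries of each regime were close together, and the log2 fold change was 0.33 (95% interval 0.10 to 0.56). ID4, a helix-loop-helix inhibitor of transcription factors in neural precursors, was at 968, 948 and 943 CPM in Green and at 1180, 1168, 1187 and 1036 CPM in G3D. The highest Green library was still below the lowest G3D library (log2 fold change 0.26, 95% interval 0.05 to 0.47).

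Other genes higher in G3D without overlap were RPL26 (0.26), a ribosomal protein, SOGA1 (0.31), CLN6 (0.25), a membrane protein of the endoplasmic reticulum needed for lysosome function, NCF1 (1.05), a subunit of the NADPH oxidase of phagocytes, TTC38 (2.30) and USP15, a deubiquitinase, with log2 fold changes in brackets. TTC38 was spread widely within G3D, at 7.70, 3.69, 4.09 and 1.53 CPM against 0.883, 0.973 and 0.683 CPM in Green. USP15 had 0, 2 and 0 counts in Green and 4, 13, 2 and 6 in G3D, too few for a fold. Green was below all Control libraries in USP15 (mean of Control 1.74 ± 0.64 CPM, SD, n = 4), while G3D overlapped them. With 1 library left out, edgeR's unadjusted p was under 0.05 in 4 of 15 fits for CLN6, 11 for RPL26 and 13 for SOGA1 and NCF1. For TTC38 and USP15 that held in all 15.

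Each gene chosen for having no overlap has a two-sided exact permutation p of 0.0571, the smallest that 3 against 4 libraries allow. The separation was one of the criteria for naming them and is not a result about them.

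The neuropeptide genes were the other group of interest, since most of those with an identifier were above Control in both green regimes. Those genes come from the study's own list of genes differing from Control, so that position is not a result about them. Of 27 symbols in the neuropeptide list, 7 had an identifier. By edgeR 0 of the 7 had an unadjusted p under 0.05 between the regimes, against 3.69% of all genes tested. In an edgeR fit of the Green and G3D libraries alone, SST (unadjusted p 0.0150), GAL (0.0179) and VIP (0.0474) were under 0.05, among 202 genes higher and 163 lower of 9698 tested, with a padj of 0.9995 each. By limma-voom SST was under 0.05 as well (0.0484, padj 0.997). The median log2 fold change of the 7 genes was 0.08, against -0.01 over all genes tested. Genes for GHRH and TRH had no identifier here and were not analysed.

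SST (ENSGALG00000007361), somatostatin, was at 1007, 968 and 1010 CPM in Green and at 1373, 1208, 1058 and 1177 CPM in G3D. Every G3D library was above every Green library, and every Green library above every Control library (616 to 844 CPM). Its log2 fold change between the regimes was 0.28 (SE 0.14, 95% interval -0.01 to 0.56; unadjusted p 0.06 and padj 0.999 by edgeR). Against Control it was 0.77 in G3D (padj 0.0249 by edgeR) and 0.49 in Green (padj 0.396). VIP (ENSGALG00000013604), vasoactive intestinal peptide, ran the other way, at 138, 148 and 123 CPM in Green and at 110, 117, 112 and 114 CPM in G3D. No G3D library reached the Green libraries and all 7 were above Control (54.8 to 103 CPM), with a log2 fold change of -0.27 (SE 0.16, 95% interval -0.61 to 0.07; padj 0.999 by edgeR). TAC1, the precursor of substance P, was at 206, 189 and 249 CPM in Green and at 194, 174, 175 and 178 CPM in G3D, and overlapped in 1 library (log2 fold change -0.25, 95% interval -0.56 to 0.06).

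GAL (ENSGALG00000007047), galanin, was at 90.8, 104 and 91.2 CPM in Green and at 132, 124, 121 and 105 CPM in G3D. The G3D libraries were all higher by a small margin, and all 7 libraries were above the Control libraries (6.20 to 42.5 CPM). The 95% interval of its log2 fold change of 0.34 nevertheless ran from -1.22 to 1.89. The fit shares 1 spread over the 4 groups, and the White libraries ran from 14.1 to 154 CPM. PACAP (ENSGALG00000014858), pituitary adenylate cyclase-activating polypeptide, was at 199, 176 and 171 CPM in Green and at 188, 171, 192 and 180 CPM in G3D. The regimes lay on top of each other, with a log2 fold change of 0.00 (95% interval -0.34 to 0.35), which leaves out a difference of 0.5 log2 units in either direction. UCN3, urocortin 3, was likewise at 7.69 ± 0.82 CPM in Green (SD, n = 3) and 8.13 ± 0.34 CPM in G3D (SD, n = 4), but its interval was wide (-0.95 to 1.11).

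AGRP (ENSGALG00000002244), agouti-related peptide, varied more within a regime than between them. It was at 0.505, 43.9 and 31.1 CPM in Green and at 27.4, 31.0, 57.3 and 0.764 CPM in G3D. Green replicate 2 and G3D replicate 7 were at the Control level (0 to 3.00 CPM) and the other 5 libraries far above it. The log2 fold change was 0.21 with a 95% interval of -3.02 to 3.44, so these libraries do not place the regimes in an order for AGRP.

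**Figure D3:**
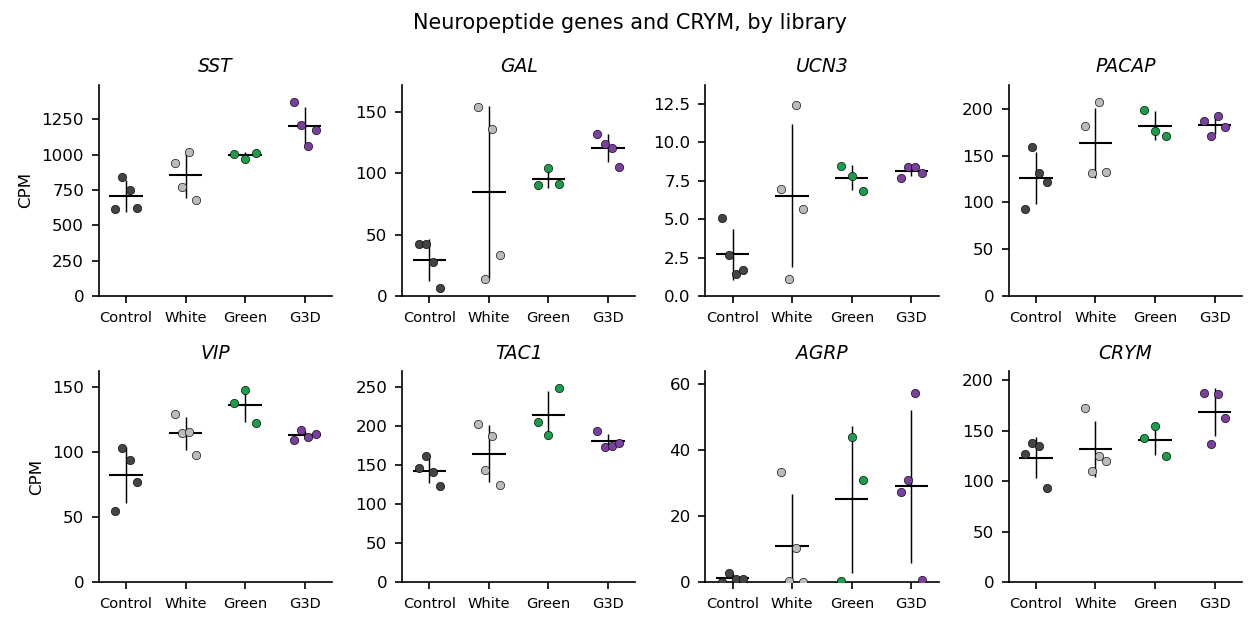
CPM of 7 neuropeptide genes and CRYM in each library (points), with the group mean (bar) and SD (vertical line). Between the green regimes, SST and GAL are higher in G3D and VIP in Green, PACAP and UCN3 coincide in the green regimes, and AGRP holds 1 library near 0 in each of them.

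CRYM, which encodes a protein that binds thyroid hormone, was at 143, 155 and 125 CPM in Green and at 188, 137, 187 and 163 CPM in G3D, with overlapping regimes and a log2 fold change of 0.25 (95% interval -0.09 to 0.60). The lists of clock genes, opsins and immediate early genes held no gene with an identifier. Over all 12 pathway lists, 32 of 327 symbols had an identifier. Of these, 0 were higher and 4 lower in G3D at an unadjusted p under 0.05 (SH3GL3, SH3GL2, BRWD1 and HDAC11). Over all genes tested the shares were 1.71% and 1.99%. Of the 568 genes with a symbol, from which all members come, 26 were higher and 33 lower at that p.

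The study also reports genes of growth, appetite, lysosomes and immunity by name. For those with both regimes near each other, the intervals set a limit. HPCAL1, a calcium sensor, had a log2 fold change of 0.11 (95% interval -0.14 to 0.36), NFKBIB, an inhibitor of NF-kB, 0.02 (-0.44 to 0.48), and IGF2R, the receptor that takes IGF2 to the lysosome, -0.16 (-0.54 to 0.23). IGF2R was at 24.0, 23.6 and 18.6 CPM in Green and at 17.3, 26.1, 18.2 and 17.4 CPM in G3D. All 7 libraries were below Control (31.1 ± 0.28 CPM, SD, n = 4). NFKBIB was at 23.8 ± 3.92 CPM in Green (SD, n = 3) and 24.1 ± 2.77 CPM in G3D (SD, n = 4), with all 7 libraries above Control (15.4 ± 2.88 CPM, SD, n = 4). IGFBP5, which binds insulin-like growth factors, was at 52.7, 33.5 and 44.7 CPM in Green and at 67.3, 47.7, 48.7 and 53.1 CPM in G3D, with 1 Green library among those of G3D (log2 fold change 0.31, 95% interval -0.10 to 0.72). With 1 library left out, it ran from 0.16 to 0.48 for IGFBP5, from 0.03 to 0.22 for HPCAL1 and from -0.33 to -0.08 for IGF2R.

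CAMK2A, a calcium-dependent kinase of synapses, was at 13.8, 13.1 and 16.9 CPM in Green and at 19.3, 19.96, 18.9 and 25.4 CPM in G3D. The regimes did not overlap, and the log2 fold change of 0.52 had a 95% interval of -0.11 to 1.15. PRKAR1A, the regulatory subunit that holds protein kinase A inactive, was at 74.9, 91.7 and 79.2 CPM in Green and at 58.8, 73.2, 67.6 and 73.2 CPM in G3D, again without overlap, with a log2 fold change of -0.27 (95% interval -0.55 to 0.02). Neither had an unadjusted p under 0.05 in edgeR's test (0.0992 and 0.0674), while in the fit of the Green and G3D libraries alone that of CAMK2A was 0.0313.

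**Figure D4:**
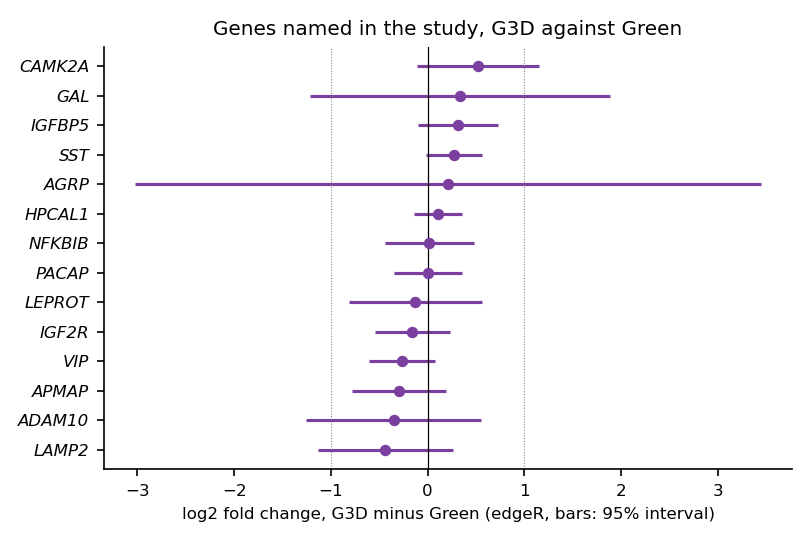
Log2 fold change, G3D minus Green, of 14 genes of growth, feeding, lysosomes and immunity (points) with their 95% interval from edgeR (bars); dotted lines mark 1 log2 unit. Every interval includes 0; the one of AGRP runs from -3.02 to 3.44 and that of PACAP from -0.34 to 0.35.

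In the list of genes of lysosomes, endosomes and protein shedding, 8 of 28 symbols had an identifier, all from the study's list of genes differing from Control. No member passed the test. Of the 8, 7 had a negative log2 fold change, with a median of -0.34. The median over all genes tested, -0.01, is not a like background for members chosen from that list. The 2 at an unadjusted p under 0.05 by edgeR were the endophilins SH3GL3 and SH3GL2. Of all genes tested, 1.99% were lower at that p. LAMP2, a lysosomal membrane protein, was at 183, 207 and 143 CPM in Green and at 98.1, 158, 57.8 and 211 CPM in G3D. The regimes overlapped, with G3D replicate 7 the highest and replicate 6 the lowest of all 7 libraries (log2 fold change -0.44, 95% interval -1.13 to 0.26). ADAM10, a protease that sheds membrane proteins, ranged from 1.82 to 12.8 CPM in G3D and from 6.69 to 12.6 CPM in Green (-0.35, 95% interval -1.26 to 0.55). APMAP (-0.30) and LEPROT (-0.13), which lowers the amount of leptin receptor at the cell surface, also overlapped. In ADAM10, LAMP2 and APMAP, G3D replicate 6 had the lowest value of the 7 libraries. With 1 library left out, the log2 fold change ran from -0.84 to -0.03 for ADAM10, from -0.76 to -0.19 for LAMP2 and from -0.55 to -0.16 for APMAP.

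Other groups of genes with a symbol were put together after their values were seen and are given as descriptions. Their members come from the 568 genes with a symbol, so the shares over all genes tested are not a like background for them. Nor are the signs of their differences and their levels against Control independent evidence. Of 13 ribosomal protein genes, 11 had a positive log2 fold change, 1 at an unadjusted p under 0.05 (RPL26, against 1.71% of all genes tested), with a median of 0.19. Their summed level was 13336, 12259 and 13085 CPM in Green replicates 2, 7 and 9, and 15933, 13315, 15554 and 13591 CPM in G3D replicates 1, 5, 6 and 7. The sums overlapped in 1 library, G3D replicate 5 lying just under Green replicate 2. RPS7 and RPS24 were the exceptions among the 13, with log2 fold changes of -1.49 and -0.17.

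Of 16 genes of mitochondrial energy metabolism, 14 had a negative log2 fold change, 3 at an unadjusted p under 0.05 (SLC25A4, SDHA and NDUFB7, against 1.99% of all genes tested), with a median of -0.32. Their summed level was 2962, 3265 and 2633 CPM in Green and 2263, 2879, 1890 and 2533 CPM in G3D, with overlap, and all 7 sums lay below the lowest Control library (3377 CPM). So did White replicate 6 (3183 CPM), which lay below Green replicate 7. SDHA, the catalytic subunit of succinate dehydrogenase, was at 219, 197 and 97.5 CPM in Green and at 75.7, 132, 72.6 and 114 CPM in G3D. Green replicate 9 lay among the G3D libraries, as it did for HDAC11. The genes of the mitochondrial genome with a symbol (MT-ND2, MT-ND3 and MT-ND4) summed to 1150, 1193 and 1038 CPM in Green and to 971, 1146, 518 and 1054 CPM in G3D. Replicate 6 of G3D was the lowest in this sum as well as the library with the lowest total count, and the part of RNA quality or depth in the result was not tested.

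Of 4 extracellular matrix genes, COL1A2, FMOD and COL6A2 were higher and VTN lower in G3D at an unadjusted p under 0.05, against 1.71% and 1.99% of all genes tested. They were put together because of these values, so nothing is read from their count. COL1A2 (ENSGALG00000009641), a chain of type I collagen and a marker of meninges and fibroblasts, was at 40.2, 62.5 and 36.0 CPM in Green and at 52.9, 91.3, 59.4 and 77.6 CPM in G3D. Green replicate 7 lay among the G3D libraries, and Control libraries ran from 29.0 to 40.0 CPM. Its log2 fold change was 0.60 (SE 0.20, 95% interval 0.18 to 1.03) between the regimes, and against Control 1.09 in G3D (padj 0.0249 by edgeR) and 0.48 in Green (padj 0.660). FMOD, fibromodulin, was at 22.3, 16.8 and 22.7 CPM in Green and at 21.9, 49.1, 37.3 and 60.2 CPM in G3D, where replicate 1 lay at the Green level. COL1A2 was the only marker of meninges and fibroblasts with an identifier, so the part of attached meninges in these values was not tested.

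**Figure D5:**
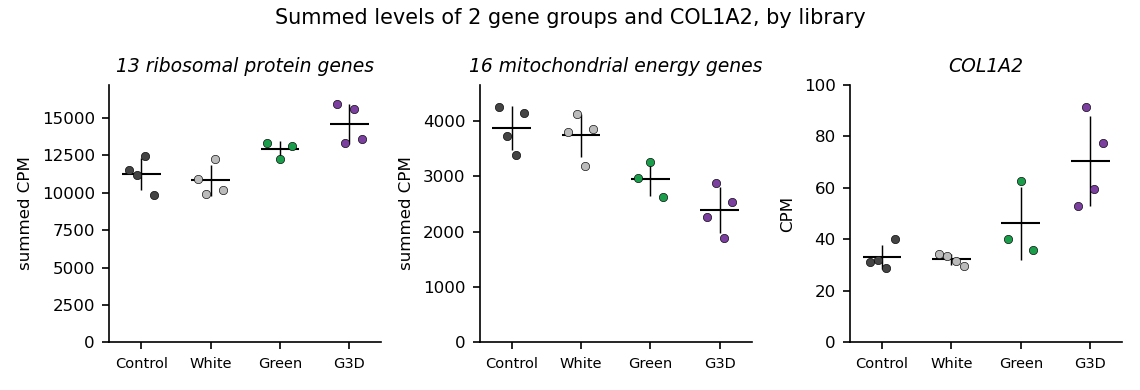
Summed CPM of 13 ribosomal protein genes and of 16 genes of mitochondrial energy metabolism, and CPM of COL1A2, in each library (points) with the group mean (bar) and SD (vertical line). In all 3 panels the libraries of Green and G3D overlap, in the ribosomal sum only between G3D replicate 5 (13315 CPM) and Green replicate 2 (13336 CPM).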

How the data were processed

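Hypothalamic RNA was profiled by bulk MARS-Seq, which reads the 3′ ends of transcripts with unique molecular identifiers (UMIs). According to the methods, adapters were removed by the authors with Cutadapt, STAR mapped the reads to 3′ regions of the chicken genome (the submitters' processing notes name GRCg6a), duplicates were resolved by UMI and HTSeq-count gave the reads per gene. The values the authors deposited are raw counts per Ensembl gene, without normalization, for 24356 genes, of which 17647 had a count.

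The analysis ran edgeR 4.0.16 under R 4.3.3, with filterByExpr, TMM and a robust quasi-likelihood fit over all 15 libraries, contrast G3D minus Green, Benjamini-Hochberg over 10475 genes. Log2 CPM for distances and exact permutation tests (scipy 1.17.1) used a prior count of 2. Other settings tried were limma-voom (limma 3.58.1), DESeq2 1.42.0, other scalings and filters, fewer samples, a replicate block, no robust shrinkage and each library left out. The code was tested on simulated data.

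Genes named are those called by edgeR or DESeq2; in each direction up to 10 genes with a symbol, an unadjusted p under 0.05 and no overlap; those the study reports by name; those called in G3D against Control that had a symbol; and up to 2 per pathway list with the smallest p. Marker genes with an identifier (COL1A2, EMX2 and the neuronal genes) were named by their lists. Members outside the rule and the marker lists were chosen after their values were seen. These were FMOD, COL6A2, VTN, SDHA, NDUFB7, MT-ND2, MT-ND3, MT-ND4, UCN3, RPS7 and RPS24. The members, lists and rules were chosen with earlier results of these data known. The labels do not say whether chicks of a regime shared a tray or trial. The p-values measure the spread between chicks and hold no separate estimate of a spread between trays or trials. Pairs of the 7 libraries differed beyond counting error, and none was a repeat of another. Some genes that met the rule are not reported here. Coordinates and sequences were not used here, and the strand setting of the counting is not given in the sources used here.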

Additional observations from a re-analysis of the deposited data

Results flagged for a closer look

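The 51 values tested within the 4 G3D libraries were gene levels and measures of a whole library, such as its total count. In 5 of them, all gene levels, the highest or lowest library stood apart by a gap past Dixon's limit for 4 samples. Chance alone gives such a gap in about 1 of 20 groups. ID4 was low in replicate 7 (1036 CPM) and SOGA1 was high in replicate 1 (224 CPM). IGF2R was high in replicate 5 (26.1 CPM) and CAMK2A was high in replicate 7 (25.4 CPM). ENSGALG00000029966, the gene called higher by DESeq2, was high in replicate 6 (23.7 CPM). The check was not run on the 3 Green libraries.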

How the results depend on the processing

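Of 44 single-gene results, 39 kept their direction under every alternative. PACAP turned to -0.000416 under limma-voom, -0.000567 under upper-quartile scaling and -0.00384 with all genes of at least 1 count. With a library left out, log2 fold changes ran from -0.321 to 0.0402 for LEPROT, -0.0406 to 0.0846 for PACAP, -0.0673 to 0.171 for NFKBIB and -0.357 to 0.909 for AGRP. The distance between the regimes minus that within them ran from -0.0419 to 0.0180, the latter without G3D replicate 5. The number of genes called was 1 higher and 1 lower with DESeq2 and 0 to 1 lower with a library left out (1 without G3D replicate 1), and 0 under every other alternative. Genes at an unadjusted p under 0.05 numbered 662 of 17647 with all genes of at least 1 count, against 387 of 10475 in the main fit. With a library left out they ran from 309 of 10768 (without Green replicate 7) to 674 of 10319 (without G3D replicate 5). Members of the pathway lists at that p numbered 8 with only the Green and G3D libraries and 2 to 8 with a library left out. The share of genes with an interval within 1 log2 unit was 35.3% with all genes of at least 1 count. The causes were not tested. Green and G3D share only 1 replicate number (7), whose deviations correlated by -0.04, so the numbers do not pair them. With the replicate number as a block over all 15 libraries, 0 genes were called (smallest padj 0.0662 by edgeR), 349 had an unadjusted p under 0.05, 30.5% had an interval within 1 log2 unit, and log2 fold changes turned to -0.140 for PACAP, -0.0626 for NFKBIB, -6.58 for AGRP and -0.519 for GAL. With 3 and 4 chicks, low counts limit what can be seen.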
